A study of Mus musculus with 2 samples.

Results

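The 38 genes described here encode the enzymes that build, recycle and break down nucleotides, together with the folate cycle enzymes that supply their one-carbon units. They were taken as a list of gene names, found through the NCBI Gene ID column in both deposited tables, and make up 38 of 23248 genes listed in either table. The tables come from RNA sequencing of splenic regulatory T (Treg) cells, a suppressive CD4 T cell type that depends on the transcription factor Foxp3. All mice, aged 6 to 8 weeks, carried on a B6.129(Cg) background the allele Foxp3tm3(DTR/GFP)Ayr, which links Foxp3 to a diphtheria toxin receptor and green fluorescent protein (GFP). The leukemia group had received 800000 leukemia cells without irradiation. Its labels also give a survival of 30 to 40 days, which cannot be that of the mice sorted at day 18. At day 18, spleens of the leukemia group were sorted for CD4+ cells with the FOXP3-GFP signal. The healthy group had been injected with phosphate buffered saline (PBS), and the same gate was used. The leukemia line or clone and the number of mice behind each library remain not given in the sources used here. Each group held 1 library, so every difference below compares 2 libraries, has no replicate check and carries no test.

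Nucleotides are made along 2 ring-building routes. The purine route starts from phosphoribosyl pyrophosphate (PRPP) and ends in AMP and GMP, and the pyrimidine route starts with the enzyme CAD and ends in UTP and CTP. Ribonucleotide reductase converts ribonucleotides to deoxynucleotides for DNA, thymidylate synthase makes the thymine nucleotide, and salvage enzymes recover free bases and nucleosides. The folate cycle carries the one-carbon units that purine rings and thymidylate need, and resting lymphocytes are known to keep these routes low until they are activated to divide.

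The libraries held 8929601 (healthy) and 8897162 (leukemia) estimated reads. FPKM is fragments per kilobase of transcript per 1000000 fragments, so that levels can be set beside each other between genes. The log2 ratio used throughout is log2((FPKM leukemia + 1) / (FPKM healthy + 1)), which understates differences of low genes, and a gene was called 2-fold higher at 1 or more and 2-fold lower at -1 or less. This is a rule of size. The read ratio divides each estimated count by its library's total and is given with an exact (Clopper-Pearson) 95% interval, which covers counting error only. Of the genes that mark the gate, Foxp3 stood at 104 FPKM in healthy-mouse cells against 62.7 FPKM in leukemia-mouse cells, Cd4 at 267 and 184 FPKM, and Cd3e at 251 and 208 FPKM.

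All 38 enzyme genes were listed in both libraries and all passed the filter of 1 FPKM in at least 1 library. In the leukemia library 9 of them (23.7%) were 2-fold higher and 0 were 2-fold lower, while over all 13717 genes that passed the filter 6.55% were higher and 1.95% were lower. The 9 were Adssl1, Ctps, Rrm1, Rrm2, Dctd, Dut, Aprt, Tk1 and Shmt1. The median log2 ratio was 0.59 over the 38 enzymes and 0.02 over all genes. The read-ratio interval lay above 1 for 29 enzymes (76.3%), below 1 for 6 and around 1 for 3. Over all genes it lay above 1 for 29.0% and below 1 for 23.5%. Such shares also depend on read number, since intervals on few reads are wide. The healthy median was 20.3 FPKM for the enzymes and 9.77 FPKM for all genes that passed the filter. Of the 38, 32 had a log2 ratio above 0, beside 52.8% of all genes. On the deposited scale most enzymes were thus higher by less than 2-fold, and a few were lower. In bulk RNA, fewer cells of a type and less RNA per cell cannot be told apart.

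The healthy library had a median of 20.3 FPKM over the 38 enzymes, from 2.30 (Adssl1) to 291 (Samhd1), and the leukemia library 28.8 FPKM, from 4.94 (Rrm2b) to 242 (Nme2). The 9 genes called higher lay between 2.30 and 28.9 FPKM in the healthy library. Summed over all 38 enzymes, the level was 1314 FPKM in healthy-mouse cells against 1731 FPKM in leukemia-mouse cells. Over the 37 enzymes other than Samhd1, the most abundant in the healthy library, it was 1023 and 1557 FPKM. Shmt2, at a log2 ratio of 0.97, lay just below the 2-fold rule and Ctps, at 1.04, just above it. The remaining genes nearest to the rule were Umps (0.90) and Dtymk (0.89), both below it.

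**Figure D1:**
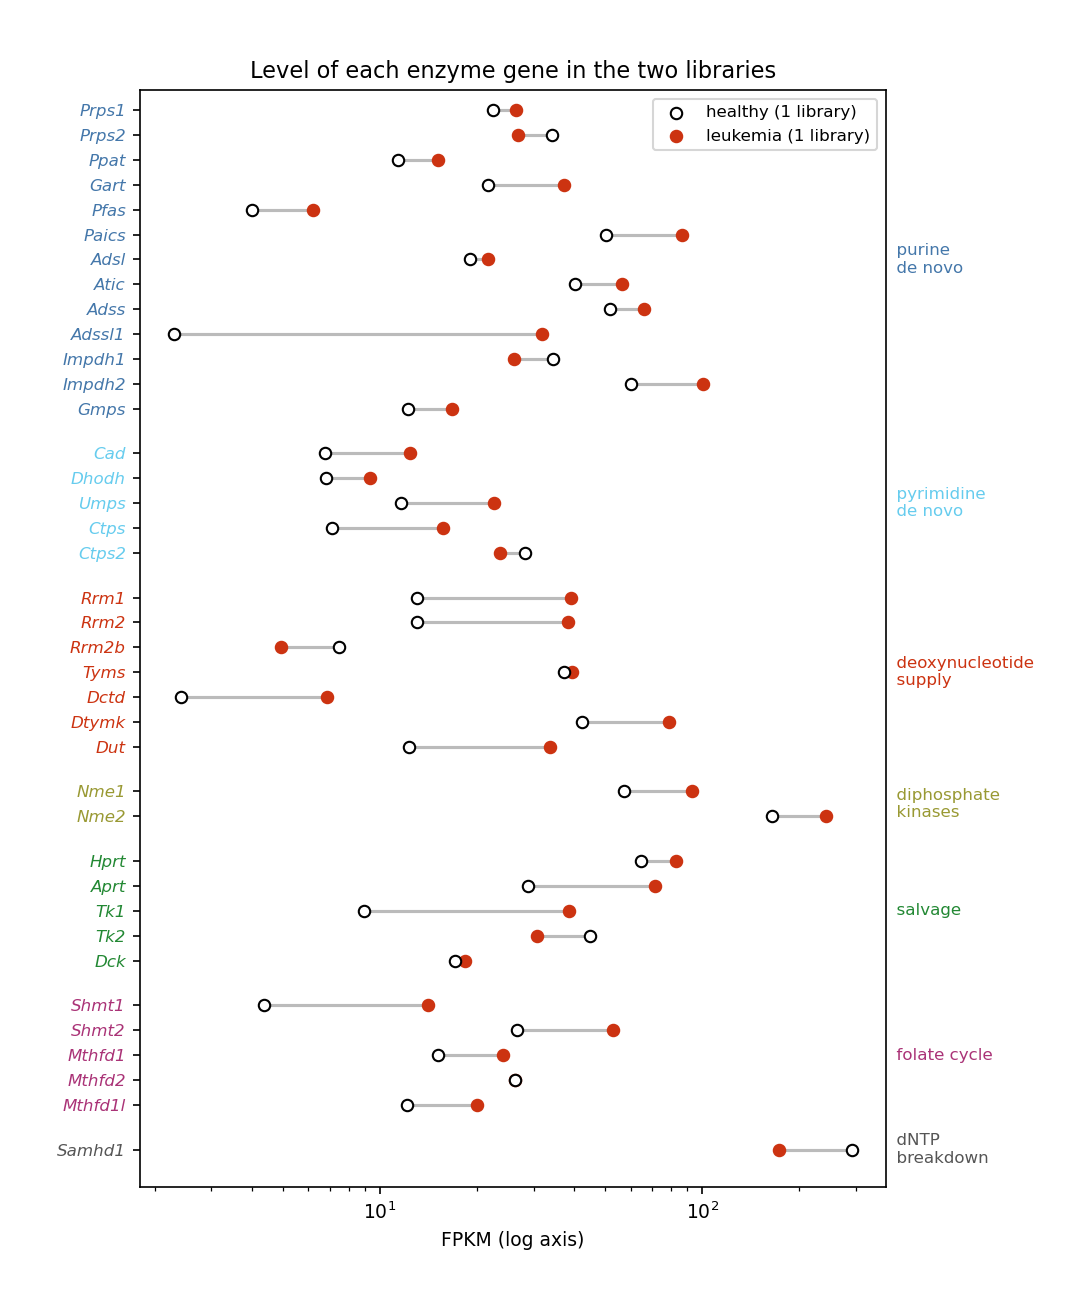
FPKM of each enzyme gene (log axis) in the healthy library (open circles) and the leukemia library (red circles), 1 library each, grouped by branch. Adssl1 spans the widest gap on this axis, from 2.30 to 31.8 FPKM, and Samhd1, Tk2 and Rrm2b are among the genes whose leukemia value lies to the left.

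**Figure D2:**
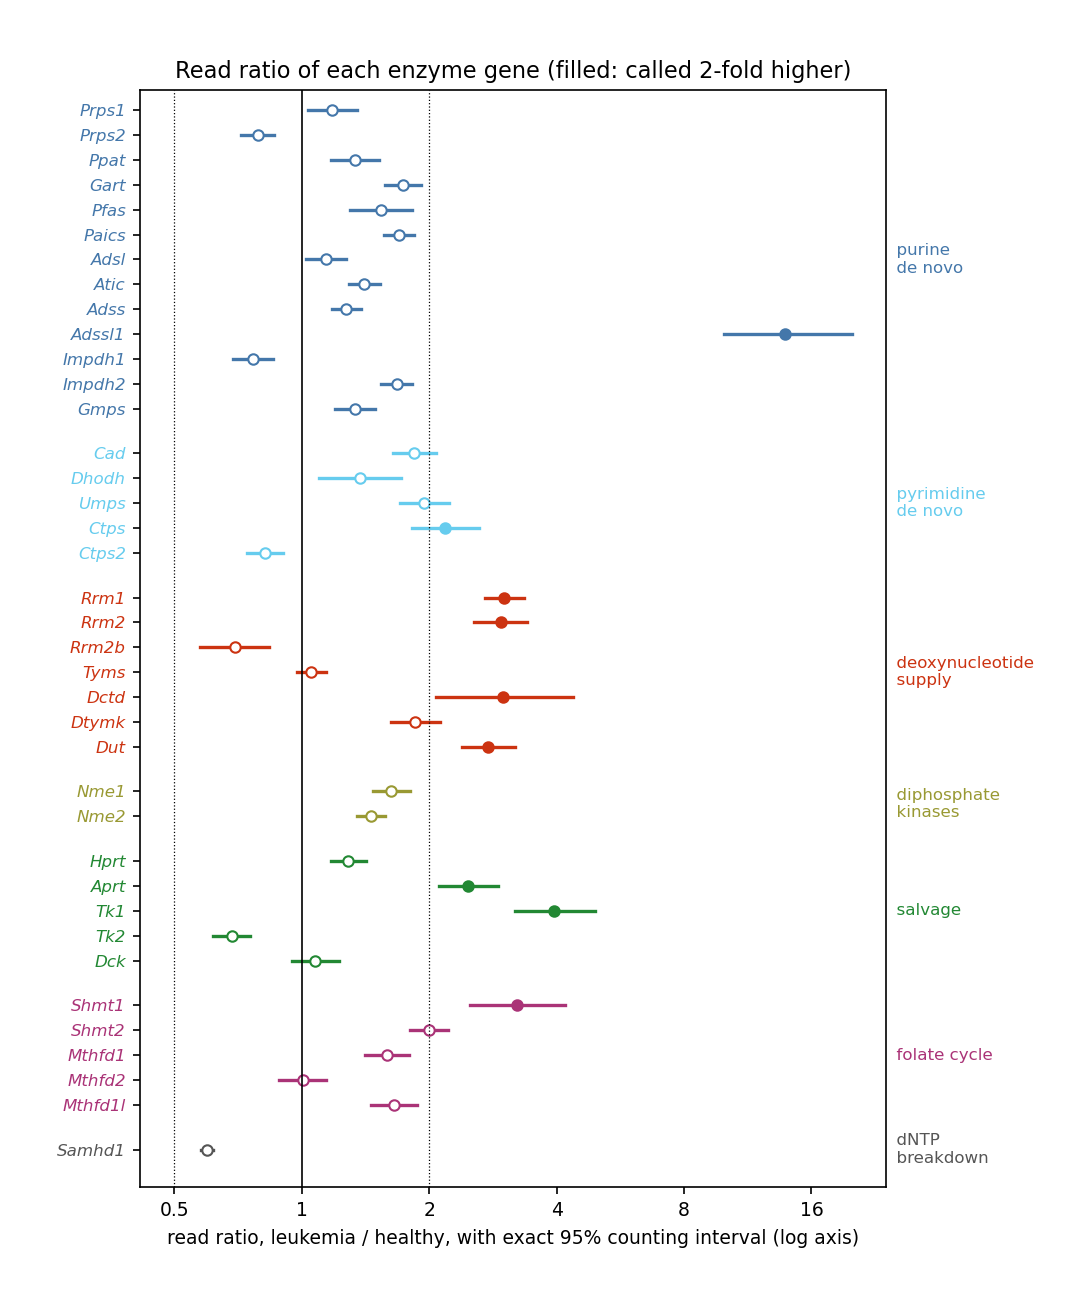
Read ratio of leukemia over healthy with its exact 95% counting interval (log axis) for each enzyme gene, with filled circles for the 9 genes called 2-fold higher and dotted lines at ratios of 0.5 and 2. The intervals of 29 genes lie above 1, those of 6 below 1, and those of Tyms, Dck and Mthfd2 hold 1.

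Other gene groups also differed between these 2 libraries. Markers of myeloid progenitors and their granules were 2-fold higher for 15 of 15 genes, with a summed level of 16.6 FPKM in healthy-mouse cells against 1409 FPKM in leukemia-mouse cells. Mpo stood at 0.83 and 357 FPKM, Elane at 1.12 and 242 FPKM, and Cd34 at 0.59 and 50.6 FPKM. Ms4a3 and Cebpe were unlisted in the healthy library. T cell genes were below 0 for 16 of 16 measured members with a median of -0.46, while Trac and Trbc2 were unlisted in both libraries. Their sum was 4765 FPKM in healthy-mouse cells against 3435 FPKM in leukemia-mouse cells. Treg genes had a median of -0.54 over 12 members, 11 of them below 0.

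Division genes were higher in the same library. Of 24 mitotic genes 19 were 2-fold higher, with a median of 1.38, and of 28 DNA replication genes 23, with a median of 1.35. The part that any of these cell markers or division genes has in the enzyme values was not tested. The remaining marker lists had between 0 and 3 genes called higher each. The 13 genes of monocytes and macrophages were split, 3 being called higher and 2 lower. The higher ones were Ly6c2 (23.7 and 437 FPKM), Spi1 (9.40 and 55.1 FPKM) and Itgam (1.01 and 5.01 FPKM), and the lower ones Vcam1 (111 and 46.2 FPKM) and Marco (5.58 and 2.26 FPKM). These 5 were named after their values were seen, and the macrophage marker C1qa stood at 173 and 96.6 FPKM. The list summed to 856 and 1011 FPKM, and to 833 and 574 FPKM without Ly6c2. B cell genes summed to 20.03 and 31.20 FPKM, while Ighm and Ighd were unlisted. CD8 T and natural killer cell genes summed to 46.0 and 51.3 FPKM, with Cd8a at 1.33 and 1.28 FPKM. Erythroid genes summed to 155 and 148 FPKM, with Hba-a1 at 79.4 and 67.4 FPKM. Neutrophil genes summed to 4.28 and 9.43 FPKM, with Camp unlisted in both, and dendritic cell genes to 138 and 102 FPKM.

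Since the T cell genes were lower together, the ratios were also set relative to their median. Centred in this way, 20 of 38 enzymes were 2-fold higher and 0 lower, beside 15.1% higher and 0.693% lower of all genes. The median became 1.05 for the enzymes and 0.49 for all genes. The 20 included all 9 genes called on the deposited scale and 11 further ones, namely Gart, Paics, Impdh2, Cad, Umps, Dtymk, Nme1, Nme2, Shmt2, Mthfd1 and Mthfd1l. The other settings left the calls as they were, with 9 enzymes higher and 0 lower in each. Beside them, all genes called higher and lower made up 9.08% and 3.59% with a pseudocount of 0.1 FPKM, 7.01% and 3.02% after rescaling to 1000000 per library, and 6.42% and 1.98% after division by the median ratio. They made up 7.0% and 1.71% on read counts with TMM scaling, 6.11% and 1.40% with a filter of 5 FPKM, and 3.86% and 1.15% with no filter. Leaving out genes of other cells and immunoglobulins gave 6.91% and 2.99%, and requiring an interval that leaves out 1 gave 5.99% and 1.23%. A 1.5-fold rule, chosen after seeing the data, called 19 enzymes higher and 1 lower, beside 13.7% and 6.37% of all genes. Directions and calls below refer to the deposited scale, with the centred log2 ratio where it changes the sign or the call.

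Upstream sequences were read for 7 genes to show the upstream regions of genes in the main contrasts. Rrm1 and Rrm2 encode the subunits of ribonucleotide reductase and were about equally higher, Tyms of the same branch was level, Impdh1 and Impdh2 encode the same enzyme activity and went opposite ways, and Nme1 and Nme2 went the same way. Each run is the 150 bases before the start site that RefSeq annotates, in build GRCm38.p6, written 5′ to 3′ on the gene's strand. Capitals mark a CCAAT box (CCAAT or ATTGG) or an E-box (CACGTG). Where RefSeq lists several start sites, the first entry of its table is shown.
Rrm1, chr7:102441545-102441694, plus strand: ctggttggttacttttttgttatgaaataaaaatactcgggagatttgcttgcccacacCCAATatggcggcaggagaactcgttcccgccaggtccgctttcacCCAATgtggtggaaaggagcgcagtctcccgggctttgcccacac
Rrm2, chr12:24708104-24708253, plus strand: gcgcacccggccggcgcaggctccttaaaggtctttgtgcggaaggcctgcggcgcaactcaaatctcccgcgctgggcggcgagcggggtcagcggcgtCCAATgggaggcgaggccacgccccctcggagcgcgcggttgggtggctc
Tyms, chr5:30073626-30073775, minus strand: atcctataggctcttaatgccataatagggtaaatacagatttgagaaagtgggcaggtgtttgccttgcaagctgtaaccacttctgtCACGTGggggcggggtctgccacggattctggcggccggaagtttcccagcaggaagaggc
Impdh1, chr6:29216365-29216514, minus strand: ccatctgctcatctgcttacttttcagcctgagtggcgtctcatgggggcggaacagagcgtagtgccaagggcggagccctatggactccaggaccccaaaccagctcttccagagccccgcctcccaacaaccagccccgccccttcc
Impdh2, chr9:108560286-108560435, plus strand: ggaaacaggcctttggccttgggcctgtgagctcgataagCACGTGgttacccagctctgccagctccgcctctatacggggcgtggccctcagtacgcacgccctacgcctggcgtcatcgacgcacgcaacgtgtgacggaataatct
Nme1, chr11:93968273-93968422, minus strand: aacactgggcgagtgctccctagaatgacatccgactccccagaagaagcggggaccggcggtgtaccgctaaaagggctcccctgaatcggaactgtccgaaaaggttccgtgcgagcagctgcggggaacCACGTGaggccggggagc
Nme2, chr11:93956257-93956406, minus strand: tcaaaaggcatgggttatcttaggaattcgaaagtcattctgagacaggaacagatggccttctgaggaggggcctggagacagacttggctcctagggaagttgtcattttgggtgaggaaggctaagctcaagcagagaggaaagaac
Rrm1 held 2 CCAAT boxes and Rrm2 held 1 in these stretches, while Tyms, Impdh2 and Nme1 each held 1 E-box and Impdh1 and Nme2 held neither. Tyms was chosen for display after its value was seen.

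Motifs were counted over the 250 bases before each start site, on both strands. The CCAAT box binds the factor NF-Y, the E-box CACGTG binds Myc and Max among others, and the letters TTTCCCGC, TTTGGCGC, TTTCGCGC and TTTGCCGC served as E2F sites. RefSeq promoters matched 35 of the 38 genes, with 43 start sites, and Pfas, Dhodh and Rrm2b had no entry. A CCAAT box was present in 13 of the 43 enzyme promoters (30.2%) and in 33.8% of all 32851 promoters. Overlapping windows of Dctd start sites hold the same box, which enters the 13 more than 1 time. Counted by gene rather than promoter, it was present in 12 of 35 enzyme genes and in 10133 of all 27025 genes with a promoter. Within the deoxynucleotide branch it was present in 4 of 6 genes, namely Rrm1, Rrm2, Dctd and Dtymk. The folate branch was alike, with 3 of 5 genes, Shmt1, Mthfd1 and the level Mthfd2. Purine synthesis had it in 4 of 12 genes, pyrimidine synthesis in 1 of 4, and salvage and the diphosphate kinases in 0. The replication and mitosis lists had it in 64.3% and 81.8% of their promoters. An E-box was present in 7 of the 43 enzyme promoters (16.3%), beside 6.02% of all promoters. Its 6 genes were Paics, Atic, Impdh2, Tyms, Dtymk and Nme1, none of which was called higher on the deposited scale. When centred, Paics (1.23), Impdh2 (1.19), Dtymk (1.35) and Nme1 (1.15) were called higher, while Atic (0.94) and Tyms (0.54) were not. An E2F site was found upstream of Ppat only (2 matches), in 1 of 43 promoters (2.33%) beside 1.86% of all. The letters TGATGCAA, a site of ATF4 type, were in 0 of 43 and in 0.791% of all promoters. No 2 matches of different motifs overlapped. A match describes these letters only, and these windows say nothing of factor binding.

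**Figure D3:**
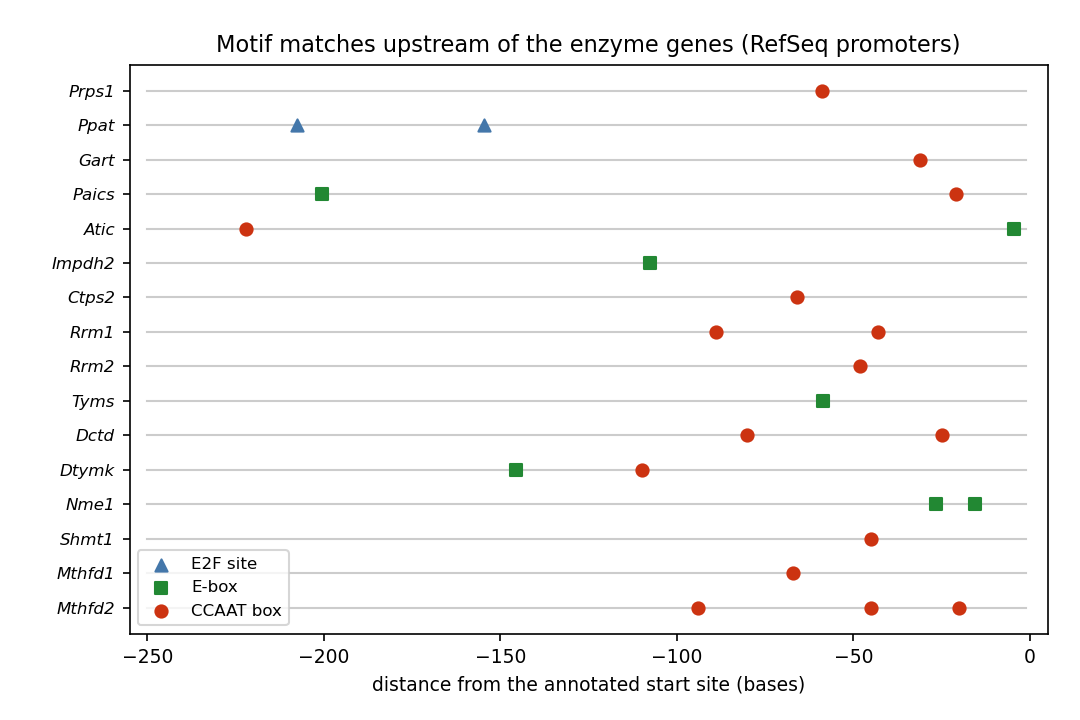
Position of motif matches in the 250 bases before the annotated start site (x axis, distance in bases) for the enzyme genes with at least 1 match, with all RefSeq start sites of a gene drawn on 1 line. CCAAT boxes (circles) lie upstream of Rrm1, Rrm2, Dctd and Dtymk, E-boxes (squares) upstream of Tyms and Impdh2, and E2F sites (triangles) upstream of Ppat. The circles of Dctd are the same box, measured from different start sites.

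Deoxynucleotide supply had the most calls. Of its 7 genes 4 were 2-fold higher (57.1%, beside 6.55% of all genes), and the branch's median log2 ratio was 1.20. Its summed level was 128 FPKM in healthy-mouse cells against 241 FPKM in leukemia-mouse cells. Rrm1, the large catalytic subunit of ribonucleotide reductase, stood at 13.03 FPKM in healthy-mouse cells against 39.2 FPKM in leukemia-mouse cells (470 and 1410 reads). Its read ratio was 3.01 (95% interval 2.71 to 3.35). Rrm2, the small subunit made in S phase, stood at 13 and 38.3 FPKM, a read ratio of 2.95 (2.56 to 3.41). The subunits thus had near-equal levels in each library and near-equal ratios. Rrm2b, the alternative small subunit induced by p53 and used outside S phase, stood at 7.48 and 4.94 FPKM and was lower, with a read ratio of 0.694 (0.575 to 0.836).

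Around the thymidylate step the genes differed from each other. Dut, which removes dUTP and so provides dUMP, stood at 12.3 and 33.6 FPKM, a read ratio of 2.76 (2.39 to 3.20). Dctd, the dCMP deaminase that also feeds dUMP, stood at 2.42 and 6.83 FPKM on 41 and 122 reads, a read ratio of 2.99 (2.08 to 4.36). Dtymk, which phosphorylates the product dTMP, stood at 42.3 and 79.1 FPKM, a read ratio of 1.86 (1.62 to 2.12) and a log2 ratio of 1.35 when centred. Tyms, thymidylate synthase itself, lay between them in the pathway and was level at 37.2 and 39.3 FPKM. Its read ratio was 1.05 (0.976 to 1.14) on 1284 and 1349 reads, and its upper bound lies below the lower bounds of Dut, Dctd and Dtymk. The pseudogene Tyms-ps, whose reads could be mixed with those of Tyms, held 5 estimated reads in each library.

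Samhd1, which hydrolyses deoxynucleoside triphosphates and so opposes their supply, was the most abundant of the 38 genes in the healthy library. It stood at 291 FPKM there and at 174 FPKM in the leukemia library, on 10303 and 6135 reads. The log2 ratio of -0.74 was the lowest of the 38, and the read ratio was 0.598 (0.579 to 0.617). It remained below 0 (-0.28) when centred on T cell genes. The level of Samhd1 relative to T cell genes therefore differed less than its level relative to all reads.

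Purine synthesis had 1 of 13 genes called higher (7.69%), near the 6.55% of all genes, and a median log2 ratio of 0.42. The summed level was 364 FPKM in healthy-mouse cells against 517 FPKM in leukemia-mouse cells. The read-ratio interval lay above 1 for 11 genes (84.6%, beside 29.0% of all genes) and below 1 for Prps2 and Impdh1. PRPP synthetase, which makes the starting sugar phosphate, was split between its genes. Prps1 stood at 22.4 and 26.4 FPKM, a read ratio of 1.18 (1.03 to 1.35), and Prps2 at 34.1 and 26.9 FPKM, a read ratio of 0.787 (0.719 to 0.861). Centring turned the log2 ratio of Prps2 from -0.33 to 0.13.

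The trunk from PRPP to IMP is encoded by Ppat, Gart, Pfas, Paics, Adsl and Atic, and all 6 had ratios above 1. Ppat, the first committed step, stood at 11.4 and 15.2 FPKM, a read ratio of 1.34 (1.18 to 1.52). Gart, which catalyses several early steps, stood at 21.6 and 37.3 FPKM, a ratio of 1.73 (1.57 to 1.91). Pfas, the amidotransferase that follows, stood at 4.02 and 6.18 FPKM, a ratio of 1.54 (1.30 to 1.82). These early steps were under 2-fold on the deposited scale, and Gart was called higher when centred (1.22). Paics, which closes the next steps, was at 50.3 and 86.4 FPKM, a ratio of 1.70 (1.57 to 1.84), and was called higher when centred (1.23). Adsl, a lyase also used on the way to AMP, was at 19.0 and 21.7 FPKM, a ratio of 1.14 (1.02 to 1.27). Atic, which finishes the ring with a folate-borne carbon, was at 40.3 and 56.6 FPKM, a ratio of 1.41 (1.29 to 1.53). Gart and Paics had the highest ratios of the trunk and Adsl the lowest. Ppat and Paics overlap in the RefSeq annotation, and without strand information reads in their shared stretch cannot be told apart.

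The branch from IMP to AMP held the highest ratio of the 38 genes. Adssl1, the adenylosuccinate synthase isozyme best known from muscle, stood at 2.30 FPKM on 37 reads in the healthy library and at 31.8 FPKM on 511 reads in the leukemia library. The log2 ratio was 3.31 and the read ratio 13.9 (9.92 to 19.9). Adss, the widely expressed isozyme, stood at 51.8 and 65.8 FPKM, a read ratio of 1.27 (1.18 to 1.38). Adssl1 thus made up 4.26% of the summed FPKM of the pair in healthy-mouse cells and 32.6% in leukemia-mouse cells.

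In the branch from IMP to GMP the IMP dehydrogenase genes went opposite ways. Impdh2, the isozyme known to increase in dividing lymphocytes, stood at 60.2 and 100.4 FPKM, a read ratio of 1.68 (1.54 to 1.82), and was called higher when centred (1.19). Impdh1 stood at 34.3 and 26.1 FPKM, a read ratio of 0.769 (0.689 to 0.857), and its log2 ratio turned from -0.38 to 0.08 when centred. Impdh2 has a listed copy, Impdh2-ps, at 3.29 and 17.7 FPKM, whose estimated reads may belong in part to Impdh2. Counted together, Impdh2 and this copy had a read ratio of 1.87 (1.73 to 2.03). Gmps, which makes GMP, stood at 12.2 and 16.8 FPKM, a read ratio of 1.33 (1.20 to 1.49).

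Pyrimidine synthesis had 1 of 5 genes called higher, beside 6.55% of all genes. Its median log2 ratio was 0.79, with a summed level of 60.4 and 83.5 FPKM. Cad, which carries the first steps on 1 polypeptide, stood at 6.75 and 12.4 FPKM, a read ratio of 1.84 (1.64 to 2.08). Dhodh, the mitochondrial dehydrogenase, stood at 6.79 and 9.31 FPKM, a ratio of 1.37 (1.10 to 1.72). Umps, which makes UMP, stood at 11.6 and 22.6 FPKM, a ratio of 1.95 (1.71 to 2.23). The steps to UMP thus all had ratios above 1, with Dhodh the lowest, and Cad (1.25) and Umps (1.36) were called higher when centred. Ctps, a CTP synthase that proliferating lymphocytes are known to require, stood at 7.09 and 15.7 FPKM, a ratio of 2.18 (1.82 to 2.62). Its paralog Ctps2 was the more abundant in both libraries, at 28.1 and 23.6 FPKM, with a ratio of 0.819 (0.743 to 0.903). Centred on T cell genes, the log2 ratio of Ctps2 turned from -0.24 to 0.22. Cad shares bases with Atraid in the annotation, which stood at 19.6 and 24.2 FPKM.

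The nucleoside diphosphate kinases, which turn diphosphates into triphosphates, were both under 2-fold on the deposited scale and both called higher when centred (log2 ratios of 1.15 for Nme1 and 1.02 for Nme2). Nme2 was the most abundant of the 38 genes in the leukemia library, at 165 FPKM in healthy-mouse cells against 242 FPKM in leukemia-mouse cells, a read ratio of 1.46 (1.35 to 1.57). Nme1 stood at 57.2 and 93.1 FPKM, a ratio of 1.63 (1.47 to 1.80). These genes are close in sequence, and the intervals of their ratios overlap. Their summed level was 222 and 335 FPKM.

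Salvage was mixed, with 2 of 5 genes called higher, beside 6.55% of all genes, and a median log2 ratio of 0.36. Tk1, the cytosolic thymidine kinase of S phase, stood at 8.95 FPKM on 108 reads in healthy-mouse cells against 38.6 FPKM on 425 reads in leukemia-mouse cells. The read ratio was 3.95 (3.19 to 4.92). Tk2, its mitochondrial counterpart, which acts independently of the cell cycle, stood at 44.9 and 30.6 FPKM, a ratio of 0.683 (0.617 to 0.756). Tk1 was thus below Tk2 in the healthy library and above it in the leukemia library. Tk1 overlaps Afmid in the annotation, and Afmid was level at 12.4 and 12.6 FPKM. Dck, the deoxycytidine kinase of lymphocytes, was level at 17.1 and 18.4 FPKM, a ratio of 1.08 (0.947 to 1.22).

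The purine base salvage enzymes differed in size of ratio. Aprt, which recovers adenine, stood at 28.9 and 71.2 FPKM, a read ratio of 2.47 (2.11 to 2.91). Hprt, which recovers hypoxanthine and guanine, stood at 64.6 and 83.1 FPKM, a ratio of 1.29 (1.17 to 1.42). The intervals of Aprt and Hprt did not overlap.

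In the folate cycle 1 of 5 genes was called higher and 4 had intervals above 1, beside 6.55% and 29.0% of all genes. The median log2 ratio was 0.68. Shmt1, the cytosolic serine hydroxymethyltransferase that takes a one-carbon unit from serine, stood at 4.38 FPKM on 81 reads in healthy-mouse cells against 14.1 FPKM on 260 reads in leukemia-mouse cells. The read ratio was 3.22 (2.50 to 4.19). Shmt2, the mitochondrial form, stood at 26.5 and 53.0 FPKM, a ratio of 2.0 (1.80 to 2.22). Both forms had ratios above 1, and the mitochondrial one, called higher when centred (1.43), was the more abundant in each library.

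Mthfd1, the trifunctional cytosolic enzyme, stood at 15.2 and 24.1 FPKM, a ratio of 1.59 (1.41 to 1.79). Mthfd1l, the mitochondrial enzyme that releases formate, stood at 12.1 and 20.1 FPKM, a ratio of 1.65 (1.46 to 1.87). Both were called higher when centred, with log2 ratios of 1.09 for Mthfd1 and 1.14 for Mthfd1l. Mthfd2, the mitochondrial dehydrogenase and cyclohydrolase that activated and tumour cells are known to express, was level at 26.2 and 26.3 FPKM. Its ratio was 1.01 (0.885 to 1.14) on 486 and 487 reads, so its interval lay below those of the other 4 folate genes. Within the mitochondrial arm, the steps on either side of Mthfd2 were thus higher while Mthfd2 was not.

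**Figure D4:**
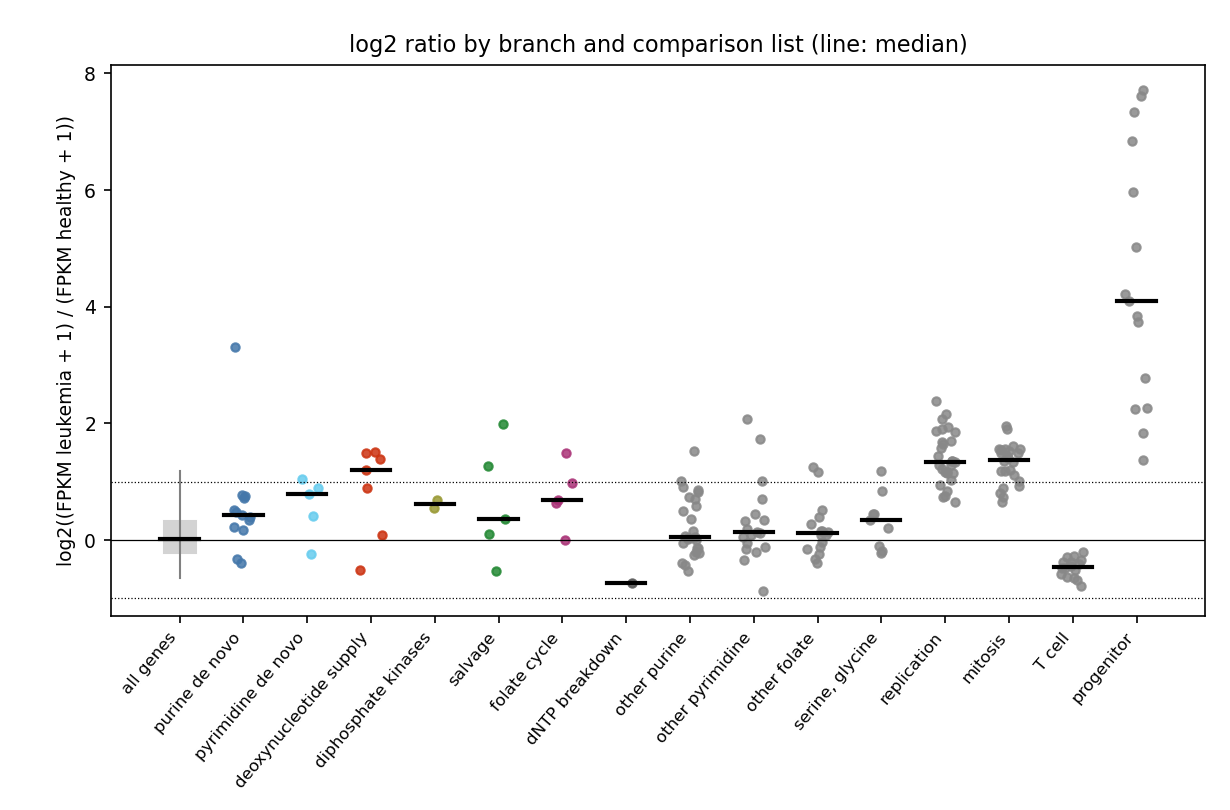
log2 ratio of leukemia over healthy FPKM (y axis) for the enzyme genes by branch (coloured points), for the other pathway and comparison lists at 1 FPKM or more (grey points), and for all 13717 genes (box, middle 50%; line, 5th to 95th percentile), with medians as black bars and dotted lines at the 2-fold rule. The deoxynucleotide branch has a median of 1.20, between purine synthesis at 0.42 and the replication list at 1.35.

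Paralogs with the same reaction were compared pair by pair. In 7 of 8 pairs the read-ratio intervals of the members did not overlap, and the exception was Nme1 and Nme2. These intervals cover counting error only and narrow with read number. The share of unrelated gene pairs without overlap was not counted, so the 7 of 8 has no background beside it. The form linked to dividing cells had the higher ratio in the pairs Rrm2 and Rrm2b, Tk1 and Tk2, and Impdh2 and Impdh1. Rrm2 made up 63.5% of the summed FPKM of the small subunits in healthy-mouse cells and 88.6% in leukemia-mouse cells. Tk1 made up 16.6% and 55.7% of its pair, and Impdh2 63.7% and 79.4%. Ctps made up 20.1% and 40.0% of CTP synthase, and Shmt1 14.2% and 21.0% of serine hydroxymethyltransferase. Where the paralogs went opposite ways the pair sums could be close, as for CTP synthase at 35.2 and 39.3 FPKM and PRPP synthetase at 56.5 and 53.3 FPKM.

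**Figure D5:**
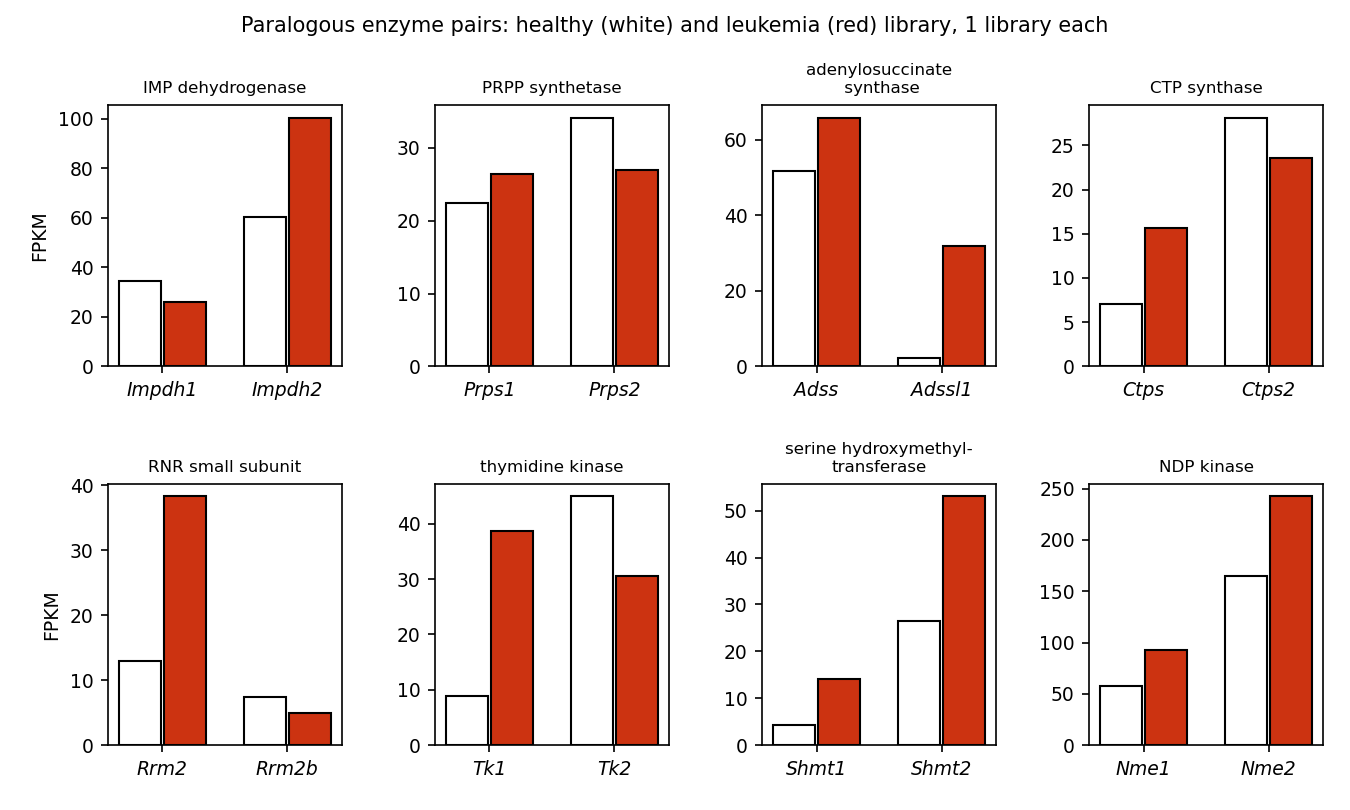
FPKM (y axis, from 0, scaled per panel) of 8 pairs of enzyme genes in the healthy (white bars) and leukemia (red bars) library, 1 library each and hence no error bars. In the panels of IMP dehydrogenase, PRPP synthetase, CTP synthase, the small subunit of ribonucleotide reductase (RNR) and thymidine kinase, 1 gene is higher and the other lower.

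Other genes of nucleotide and one-carbon metabolism lay closer to the background. Of 84 such genes outside the list, 68 reached 1 FPKM, 8 of them (11.8%) were 2-fold higher and 0 lower, and their median log2 ratio was 0.13. Among other purine genes, 2 of 25 were higher and the median was 0.05. They were Gda, guanine deaminase (0.78 and 4.10 FPKM), and Ak6, an adenylate kinase (8.76 and 18.7 FPKM). The next largest ratios were those of Nudt1, which cleans oxidised nucleotides (12.6 and 24.5 FPKM), Pnp2, Gmpr and Ampd2, with log2 ratios of 0.91, 0.86, 0.83 and 0.74. Pnp2 is a close copy of Pnp, and its reads are uncertain.

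Among other pyrimidine genes, 3 of 18 were higher and the median was 0.13. Dctpp1, which destroys excess dCTP and its modified forms, stood at 13.8 FPKM in healthy-mouse cells against 48.4 FPKM in leukemia-mouse cells, a read ratio of 3.51 (2.71 to 4.58). Nme4, a mitochondrial diphosphate kinase, stood at 2.66 and 14.4 FPKM on 21 and 111 reads, and Nme6 at 3.44 and 7.93 FPKM. The gene Cmpk2, a mitochondrial kinase induced by interferon, was at 12.4 and 6.34 FPKM (log2 ratio -0.87). Uck2, Cmpk1 and Slc28a2 were at 0.70, 0.45 and -0.34, and Nt5c was at 0.34.

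Among other folate genes, 2 of 16 were higher and the median was 0.12. Folr1, a folate receptor, had no entry in the healthy table and 10 reads in the leukemia library. Set against a floor of 3 reads, this gives a ratio of 3.35, which leaves out counting error. The exact counting interval of the Folr1 read ratio had a lower bound of 2.25. Fpgs (0.51), the folate carrier Slc19a1 (0.40) and Mthfs (-0.32) were under 2-fold.

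Serine and glycine genes, which feed the folate cycle, had 1 of 9 higher and a median of 0.35. Psat1, of serine synthesis, stood at 17.6 and 41.5 FPKM, a read ratio of 2.35 (2.07 to 2.67). Gcsh (0.84), Psph (0.45), Phgdh (0.45) and Slc38a1 (0.35) were under 2-fold. Of 12 measured regulators of growth and division, 2 were higher, the cell cycle factors E2f1 (2.79 and 17.8 FPKM) and E2f8 (1.92 and 12.6 FPKM). Myc, which is known to induce many of these enzymes, was at 49.8 and 57.2 FPKM (0.20), and Atf4, which controls serine and mitochondrial folate genes, was at 136 and 133 FPKM (-0.03). Both were named for their known roles after their values were seen. The retinoblastoma gene Rb1 (-0.66), E2f3 (0.42), Max (-0.32) and E2f4 (0.21) were under 2-fold.

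The median of the 38 enzymes lay between that of all genes and those of the division lists. Mitotic genes, for example Aurkb (4.12 and 18.8 FPKM), Ccnb2, Tpx2 and Cdk1, and replication genes, for example Uhrf1 (6.23 and 36.9 FPKM), Gins1, Mcm10 and Chaf1a, had no member below a log2 ratio of 0.65. Of the 38 enzymes, 6 lay below 0. Without the deoxynucleotide branch and Tk1, the 30 remaining enzymes had 4 genes called higher (13.3%, beside 6.55% of all genes). Their median was 0.50, smaller than the 0.59 of all 38 enzymes and also above 0, beside 0.02 over all genes. Of the T cell list, Themis (-0.79), Ptprc (-0.68) and Prkcq (-0.63) lay on the other side of 0, as did Tk2 (-0.54) and Samhd1 (-0.74). Ptprc is not restricted to T cells. The Treg genes Ctla4 (-0.91), Foxp3 (-0.72), Il2ra (-0.69) and Itgae (-0.64) lay there as well.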

How the data were processed

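The 2 libraries, grouped by disease state, were compared. Bowtie2 2.2.5 and RSEM made the values, per the submitters' processing notes. The RSEM version, build, annotation and strandedness remain not given in the sources used here. The deposited tables, per the file headers, give an expected count per gene, estimated by RSEM, and a deposited FPKM value, with a length column that was not used in any result. Of 23248 NCBI Gene IDs, 21713 matched a RefSeq symbol by ID and 15 by transcript accession, with 1520 left without a symbol (0.937% of healthy and 1.06% of leukemia reads). Genes missing from a table were set to 0 there. The expected counts were rounded for intervals and for TMM scaling in edgeR 4.0.16. For the log2 ratio 1 FPKM was added to each value, and genes under 1 FPKM in both libraries were left out. RSEM shares reads between similar genes by estimate. With 1 library a group no test was possible, and alternatives were another pseudocount, other scalings and other filters. The calculations were tested on simulated data. Members, branches and gene lists were chosen with earlier results of these data known. All 38 members are named. Of the other lists, genes past the 2-fold rule and up to 4 with the largest log2 ratios are named. A few genes under this rule are not reported here. Protein sequences were not used here. Python 3.11.15 and SciPy 1.17.1 were used.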

Additional observations from a re-analysis of the deposited data

How the results depend on the processing

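All 9 called enzymes remained 2-fold higher under each of 8 alternatives of scale, pseudocount and filter and with the condition that the read-ratio interval leave out 1. Centring, the smaller pseudocount and leaving out the filter could not have removed any of these calls. The filter of 5 FPKM could remove only a gene below it in both libraries. Dctd, the lowest of the 9 in the leukemia library, stood at 6.83 FPKM there. The rescalings, TMM scaling, division by the median ratio and the interval condition could also have removed calls. Centring on T cell genes gave 20 enzymes higher (purine 4, pyrimidine 3, diphosphate kinases 2, folate 4), an enzyme median of 1.05, and 2073 higher and 95 lower of all genes. A 1.5-fold rule, chosen after seeing the data, gave 19 enzymes higher (purine 4, pyrimidine 3, diphosphate kinases 1, folate 4) and 1 lower, and 1881 higher and 874 lower of all genes. For all genes, a filter of 5 FPKM gave 590 higher and 135 lower. The lower genes numbered 493 with a pseudocount of 0.1 FPKM, 414 after rescaling to 1000000 per library, 408 after leaving out other-cell and immunoglobulin genes, and 169 with the interval condition. Of 304 values of single enzymes, 266 moved by less than the counting interval. That count includes the filters, which leave each value unchanged by construction. Centring moved every enzyme by more than this except Adssl1 and Dctd. All enzymes had at least 37 reads in each library. No paired analysis was possible because each group held 1 library, and for the same reason no replicate could be left out.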
